A study of Mus musculus with 9 samples.

Results

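Transporters of organic ions, bile acids and drug conjugates were examined in the livers of female C57BL/6J mice after early-life pulsed antibiotic treatment (PAT). They were defined by name, as every gene of the array whose symbol starts with Slco, Slc22a, Slc10a, Abcb or Abcc. Of 18193 genes on the array, 59 met this rule, 41 of them in the uptake families (15 Slco, 21 Slc22a and 5 Slc10a genes) and 18 in the export families (8 Abcb and 10 Abcc genes). The 109 probe sets of these genes were reduced to 1 per gene, the one brightest on average over the 9 arrays.

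A set of 9 arrays of whole liver RNA was compared, 3 per group (control, amoxicillin and tylosin). Control mice received no antibiotic. Amoxicillin (0.167 mg/mL, an intended 25 mg/kg per day) or tylosin (0.333 mg/mL, an intended 50 mg/kg per day) was given in the drinking water in 3 courses (days 10 to 15, 28 to 31 and 37 to 40 of life). All 3 groups were afterwards fed high-fat chow, and livers were taken at an age given as 22 weeks in the description of the study and as 24 weeks in the sample labels. Littermates shared a treatment and a cage, and the litter of each sample is not given, so the p-values measure only the spread between these samples.

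Hepatocytes stand between portal blood and bile. Carriers of the sinusoidal membrane, which faces the blood, take up bile acids, bilirubin, hormones, carnitine and drugs, and ATP-driven pumps of the canalicular membrane send bile acids, phospholipid and conjugates into bile. Other pumps of the sinusoidal membrane return conjugates to the blood. Since bile acids are altered by gut bacteria and come back to the liver by the portal vein, these carriers lie on the path between the microbiota and the liver.

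Few of these genes differed between the groups. Slc22a7, the organic anion transporter OAT2 of the sinusoidal membrane, was lower after tylosin than in both control and amoxicillin livers. Slco4a1, an organic anion and thyroid hormone carrier at low signal in liver, was lower after either antibiotic at the brighter of its 2 probe sets. No other member was called in any of the 3 comparisons, and no member was called higher. A gene was called at the thresholds of the study's methods, an unadjusted P under 0.01 in limma and an absolute log2 fold change over 0.5, in a fit to all 45037 probe sets.

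With amoxicillin, 1 of 59 transporter genes was called against control (1.69%), and 1.28% of all genes were called. With tylosin, 2 of 59 were called (3.39%), against 1.45% of all genes. Between tylosin and amoxicillin, 1 of 59 was called (1.69%), against 0.11% of all genes. The first of these shares lies near that of the array as a whole, and the others rest on 2 genes and 1 gene. After Benjamini-Hochberg adjustment over all probe sets, limma called 0 members in each comparison, with 6, 10 and 5 members under an unadjusted p of 0.05. Of all 18193 genes, 2816, 3018 and 570 were under that p.

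The 3 amoxicillin arrays all lay above or all below the 3 control arrays for 12 of 59 members (20.3%), against 21% of all genes. For tylosin these were 10 members (16.9%) and 17.4% of all genes. Between tylosin and amoxicillin they were 7 members (11.9%) and 6.13% of all genes. The median log2 fold change of the 59 members was -0.03 with amoxicillin and -0.06 with tylosin, and that of all genes was -0.03 and -0.01. Among 41 uptake genes the medians were -0.05 and -0.04, and among 18 export genes 0.01 and -0.09. Uptake and export genes thus had medians within 0.1 of 0 in both comparisons with control, which share the same control arrays. These medians include 27 uptake and 8 export genes that did not exceed a log2 value of 6 in at least 3 arrays.

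**Figure D1:**
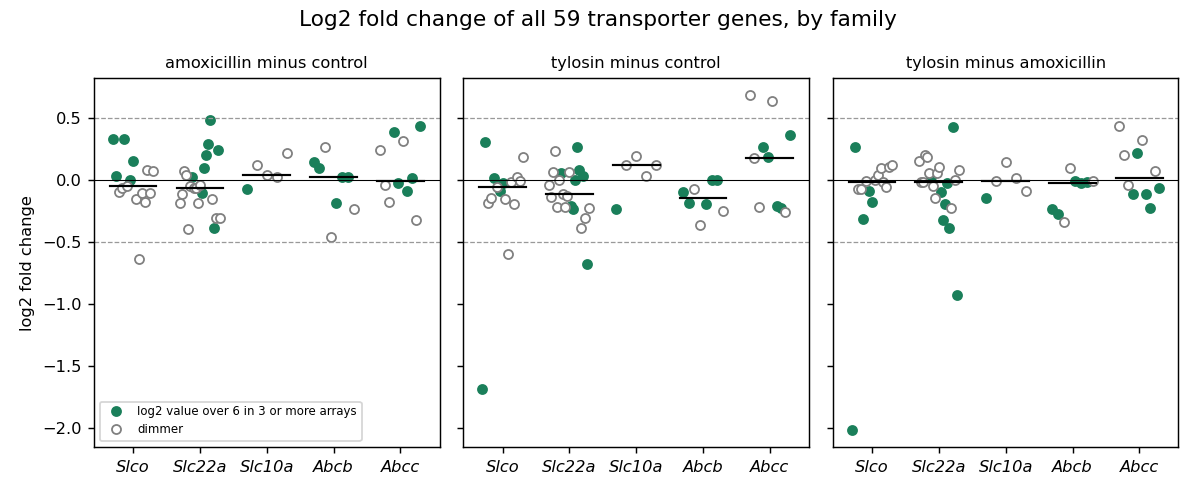
Log2 fold change (vertical axis) of each of the 59 transporter genes by family in the 3 comparisons; filled points are genes with log2 values above 6 on 3 or more arrays, open points are dimmer genes, short lines are family medians and dashed lines mark 0.5 and -0.5. Most points lie between the dashed lines, and Slco1a1, at -1.69 and -2.02, lies lowest in both comparisons of tylosin.

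The arrays measure liver. The 6 hepatocyte markers averaged 13.79 to 14.01 on the log2 scale in the 9 arrays. The following 4 arrays stood apart in other cell markers. The mean of 10 genes of intestinal mucosa was 6.84 in amoxicillin replicate 1 and 6.67 in tylosin replicate 2, 5.24 in tylosin replicate 1 and 4.52 to 4.74 in the other 6 arrays. Reg3b, an antimicrobial lectin of gut epithelium, was 10.18, 9.72 and 7.75 in these 3 arrays and 2.67 to 3.15 elsewhere. Not all genes of this list rose. In tylosin replicate 1, Zg16 (6.07), Tff3 (4.56) and Cdh17 (3.23) also lay above the controls. Muc2 (3.53), Vil1 (3.60), Reg3g (3.15), Agr2 (2.48) and Lgals4 (7.10) lay within the control range there, and Fabp2 (10.90) was lowest of the 9 arrays. Fabp2 (11.03) and Lgals4 (7.04) were not raised in amoxicillin replicate 1 either. The mean of 6 smooth muscle genes was 6.16 in amoxicillin replicate 1, 6.49 in tylosin replicate 2 and 4.25 to 4.62 elsewhere. In tylosin replicate 3 the mean of 7 Kupffer cell and macrophage genes was 9.12, against 7.86 to 8.84 in the other arrays. The list went both ways there: 5 of its 7 genes, with Marco at 10.95, were highest of the 9 arrays, while the Kupffer cell genes Clec4f (7.50) and Vsig4 (9.40) were lowest. The difference between 3-prime and 5-prime probe sets of Actb, which rises with RNA degradation, was 1.29 to 1.40 for the controls, 1.39 to 1.57 for amoxicillin and 1.21 to 1.73 for tylosin. In whole tissue, fewer cells of a type and less RNA per cell cannot be told apart.

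Of the 59 genes, 24 had log2 values above 6 on 3 or more arrays, 14 of them uptake and 10 export genes. In 33 genes no array exceeded 6, which is nearer the array medians of 3.96 to 4.06, where values carry more background. Among these were the kidney carriers Slc22a2, Slc22a6, Slc22a8 and Slc22a12 (2.94 to 5.42), Slc10a2, the bile acid carrier of ileum and bile ducts (2.67 to 3.82), and the testis genes Slco6b1, Slco6c1 and Slco6d1 (2.54 to 3.79). A further pair, Abcb1a and Abcc4, exceeded 6 in 1 array each. The values of different genes are not compared here, since each probe set has its own brightness.

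The 6 carriers listed for sinusoidal uptake of bile acids and organic anions all passed this level. Their median log2 fold change was 0.20 with amoxicillin and -0.13 with tylosin, each against control. Slc22a7, which carries organic anions and nucleotides, was 8.41, 8.30 and 8.50 in control livers, 8.93, 8.79 and 8.23 with amoxicillin, and 7.78, 8.03 and 7.36 with tylosin. All 3 tylosin arrays lay below all 6 others, while the amoxicillin arrays lay on both sides of the controls. It averaged 8.40 ± 0.10 in control livers, 8.65 ± 0.37 after amoxicillin and 7.72 ± 0.34 after tylosin (SD, n = 3 each).

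The log2 fold change of Slc22a7 with tylosin was -0.68 against control (standard error 0.20, adjusted p = 0.21 from limma), a level 1.60-fold lower. Against amoxicillin it was -0.93 (standard error 0.20, 95% interval -1.36 to -0.49, adjusted p = 1.0 from limma), a level 1.90-fold lower. With amoxicillin against control the gene was not called. The call between the antibiotics held with any 1 array left out. The call against control was lost when any 1 control array was left out (-0.63 to -0.73), and likewise for tylosin replicate 3 (-0.50) or 1 (-0.71), with the direction kept. Slc22a7 has a single probe set on the array. Its lowest value was in tylosin replicate 3, the array where 5 of 7 macrophage markers were highest and Clec4f and Vsig4 lowest; their part in the value was not tested.

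Slco1a1, a carrier of sulfated conjugates that is more abundant in male than female mouse liver, varied more than any other member. It was 6.61, 8.04 and 7.69 in control livers, 8.42, 8.82 and 6.10 with amoxicillin, and 5.97, 6.93 and 4.37 with tylosin. The groups overlapped, and the range of 4.45 log2 units over the 9 arrays was the widest of the 59 genes. The means were 7.45 ± 0.75, 7.78 ± 1.47 and 5.76 ± 1.29 (SD, n = 3 each). Its log2 fold change was -1.69 for tylosin against control (95% interval -3.35 to -0.03, adjusted p = 0.33 from limma) and -2.02 against amoxicillin (interval -3.68 to -0.36, adjusted p = 1.0 from limma). Neither difference was called, since the unadjusted p was 0.047 and 0.022. The second was called without amoxicillin replicate 3 (-2.86) or tylosin replicate 2 (-2.61). Without tylosin replicate 3 the differences were smaller, at -0.99 against control and -1.33 against amoxicillin.

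A second probe set of Slco1a1 was 4.26 to 6.77 and was also highest in amoxicillin replicate 2 and lowest in tylosin replicate 3. Slco1a4, a paralogue that is more abundant in female liver, was 10.83, 10.16 and 10.37 in control livers, 10.22, 10.62 and 10.63 with amoxicillin, and 10.86, 10.68 and 10.72 with tylosin. The tylosin arrays lay above the amoxicillin arrays and overlapped the controls, and no comparison was called.

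Slc10a1, the sodium-dependent carrier that takes up most conjugated bile acids, was 13.04, 12.82 and 12.84 in control livers, 12.79, 12.85 and 12.82 with amoxicillin, and 12.80, 12.72 and 12.47 with tylosin. The tylosin arrays lay just below the controls, by a log2 fold change of -0.24 (95% interval -0.47 to 0.00, adjusted p = 0.34 from limma), which was not called and was -0.14 without tylosin replicate 3. Its other probe set was also highest in control replicate 1 (12.35) and lowest in tylosin replicate 3 (11.70).

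Slco1b2, the mouse carrier of unconjugated bile acids, bilirubin and many drugs, was 11.94, 12.34 and 11.97 in control livers, 12.57, 12.35 and 12.32 with amoxicillin, and 12.47, 12.17 and 11.63 with tylosin. Slco2b1, a carrier of steroid sulfates, was 10.22 to 10.35, 10.40 to 10.47 and 10.01 to 10.41 in the same groups. For both genes the tylosin arrays overlapped the controls. The amoxicillin arrays of Slco2b1 lay above the controls, by less than the fold of a call. At a second probe set of Slco2b1 over 6 in all arrays (8.76 to 9.15) they overlapped the controls. At a dimmer probe set of Slco1b2 the amoxicillin arrays (9.58 to 9.69) lay above the controls (8.77 to 9.48). The log2 fold change there was 0.57, and -0.60 for tylosin against amoxicillin. At another, amoxicillin (12.14 to 12.24) and control (12.07 to 12.18) overlapped. None of these was called.

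**Figure D2:**
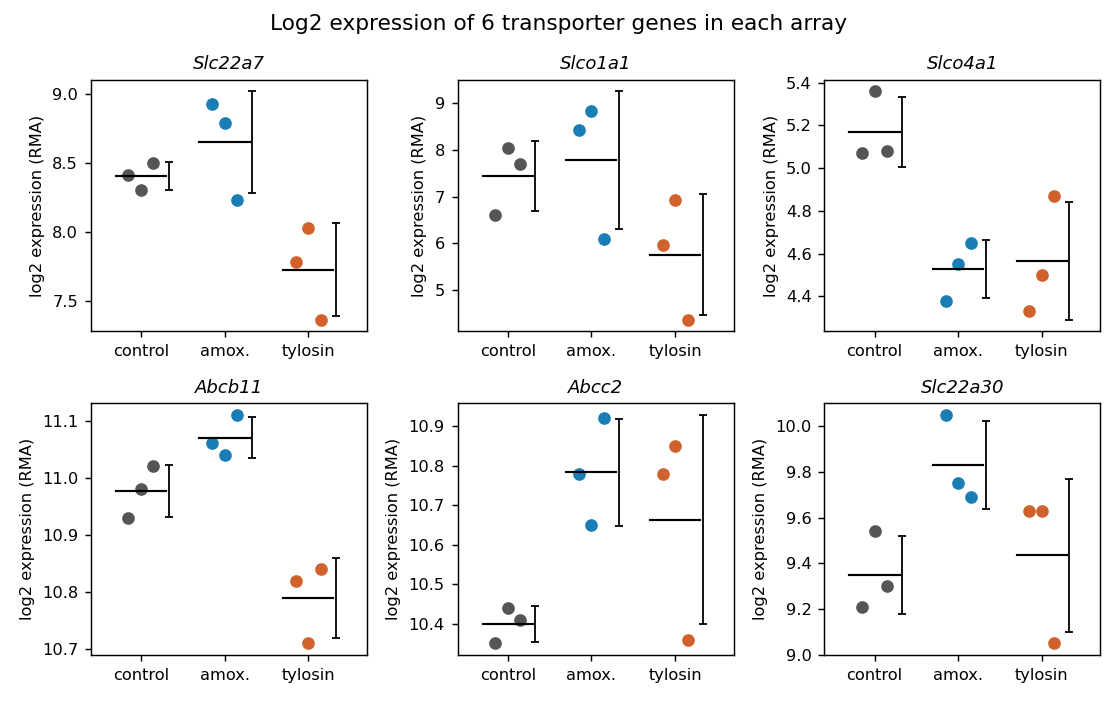
Log2 expression (vertical axis, each panel with its own range) of 6 transporter genes in the 3 arrays of each group; points are arrays, horizontal lines are group means and bars are 1 SD. The 3 tylosin arrays of Slc22a7 lie at 7.36 to 8.03, below the other 6, and those of Abcb11 at 10.71 to 10.84.

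For organic cations and carnitine, Slc22a5 (the carnitine carrier OCTN2) and Slc22a4 (the ergothioneine carrier OCTN1) are described. Slc22a5 was 9.94, 9.34 and 9.51 in control livers, 8.97, 9.09 and 9.58 with amoxicillin, and 9.79, 9.58 and 9.52 with tylosin. Amoxicillin replicates 1 and 2 were the lowest of all arrays, and the third lay among the controls. Its log2 fold change with amoxicillin was -0.39 (95% interval -0.79 to 0.02) and that of tylosin against amoxicillin 0.42 (interval 0.01 to 0.82). Neither was called, and both were called without amoxicillin replicate 3 (-0.57 and 0.60). The first was -0.21 without control replicate 1. Slc22a4 was under 6 in all arrays, at 2.89 to 3.79. Its log2 fold change with tylosin was -0.39 (95% interval -0.75 to -0.03, adjusted p = 0.30 from limma), and it was -0.23 without tylosin replicate 3.

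In the Slc22a26 to Slc22a30 group of rodent organic anion carriers, Slc22a30 was 9.21, 9.54 and 9.30 in control livers, 10.05, 9.75 and 9.69 with amoxicillin, and 9.63, 9.63 and 9.05 with tylosin. The amoxicillin arrays lay above all others. Against control the log2 fold change was 0.48 (95% interval 0.10 to 0.85, adjusted p = 0.27 from limma). It was not called, being just under the fold of a call and at an unadjusted p of 0.017 from limma. That of tylosin against amoxicillin was -0.39 (interval -0.77 to -0.02), and -0.20 without tylosin replicate 3. Slc22a26, Slc22a27 and Slc22a29 were over 6 in all arrays and overlapped between control and either antibiotic. These genes are close copies of each other, and the probe sets of Slc22a27 and Slc22a29 are of a type that can bind several transcripts, so signal may be shared between them. By their names, the brightest probe sets of Abcc2, Abcc9, Slco1b2 and Slco2b1 can also match several transcripts.

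Slco4a1, the only transporter gene called against control with both antibiotics, was 5.07, 5.36 and 5.08 in control livers, 4.38, 4.55 and 4.65 with amoxicillin, and 4.33, 4.50 and 4.87 with tylosin. All 6 PAT arrays lay below the 3 control arrays. Its log2 fold change was -0.64 with amoxicillin (standard error 0.15, adjusted p = 0.20 from limma) and -0.60 with tylosin (standard error 0.15, adjusted p = 0.19 from limma). Both values rest on the same control arrays, and all 9 values were under 6. The tylosin call was lost without tylosin replicate 1 (-0.49), and both were lost without amoxicillin replicate 1 and tylosin replicate 2 together (-0.57 each), the arrays highest in intestinal transcripts. A second probe set of the gene, at 3.64 to 3.85, was not called and did not fall. Its log2 fold change was 0.04 with amoxicillin and 0.04 with tylosin.

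Of the 5 canalicular export genes, none was called. Abcb11, the bile salt export pump, was 10.93, 10.98 and 11.02 in control livers, 11.06, 11.04 and 11.11 with amoxicillin, and 10.82, 10.71 and 10.84 with tylosin. The 3 groups did not overlap, with tylosin lowest and amoxicillin highest, but the differences were small. The log2 fold change of tylosin was -0.19 against control (95% interval -0.37 to -0.01, adjusted p = 0.31 from limma) and -0.28 against amoxicillin (interval -0.46 to -0.10, adjusted p = 1.0 from limma), a level 1.22-fold lower. The value against control was -0.14 with median centring, -0.22 with quantile normalization and -0.15 without tylosin replicate 2.

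Abcc2, the pump MRP2 for conjugated bilirubin and glutathione conjugates, was 10.35, 10.44 and 10.41 in control livers, 10.78, 10.65 and 10.92 with amoxicillin, and 10.78, 10.85 and 10.36 with tylosin. All amoxicillin arrays and all tylosin arrays but replicate 3 lay above the controls. The log2 fold change with amoxicillin was 0.38 (95% interval 0.10 to 0.67, adjusted p = 0.26 from limma) and with tylosin 0.26 (interval -0.02 to 0.55). Neither reached the fold of a call, and the unadjusted p from limma was 0.014 and 0.069. The tylosin value was 0.17 without tylosin replicate 2 and 0.41 without tylosin replicate 3.

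Abcb4, which moves phosphatidylcholine into bile, was 11.55, 11.52 and 11.35 in control livers, 11.08, 11.43 and 11.35 with amoxicillin, and 11.33, 11.00 and 11.49 with tylosin, and the groups overlapped. Its lowest values were in amoxicillin replicate 1 and tylosin replicate 2, the arrays highest in intestinal transcripts; their part in these values was not tested. Abcb1a and Abcb1b, which encode the drug pump P-glycoprotein, were 5.16 to 6.18 and 2.29 to 3.49, and the log2 fold change of Abcb1b with amoxicillin was -0.46 (95% interval -0.96 to 0.04) at this low signal. It was -0.29 without control replicate 1 and -0.26 without amoxicillin replicate 1. A dimmer probe set of Abcb1a was highest in amoxicillin replicate 1 (4.82), against 3.37 to 4.07 elsewhere.

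To show the sequence before some of these genes, the 250 bases upstream of the RefSeq start (GRCm38.p6) are given for Abcb11, Abcc2 and Slco1a1, each from 5′ to 3′ on the strand of the gene. Of the 11 sinusoidal anion uptake and canalicular genes, 10 had such windows, all but Slc22a7. Capitals mark AGGTCA, the core element bound by nuclear receptors such as the bile acid receptor FXR, or its reverse complement TGACCT, and in Slco1a1 also TTTATA, the reverse complement of the TATA box letters TATAAA. The marked elements do not overlap.
Abcb11 (chr2:69342617-69342866, minus strand): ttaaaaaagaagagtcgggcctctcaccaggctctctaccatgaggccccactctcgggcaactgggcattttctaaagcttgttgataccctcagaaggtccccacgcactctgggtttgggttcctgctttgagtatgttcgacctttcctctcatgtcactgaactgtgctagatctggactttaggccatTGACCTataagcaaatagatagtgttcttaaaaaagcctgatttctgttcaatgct
Abcc2 (chr19:43782058-43782307, plus strand): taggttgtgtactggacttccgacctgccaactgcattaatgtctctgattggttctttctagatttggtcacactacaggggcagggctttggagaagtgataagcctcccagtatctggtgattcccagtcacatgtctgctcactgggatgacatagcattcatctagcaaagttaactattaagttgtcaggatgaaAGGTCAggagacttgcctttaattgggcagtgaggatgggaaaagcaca
Slco1a1 (chr6:141946963-141947212, minus strand): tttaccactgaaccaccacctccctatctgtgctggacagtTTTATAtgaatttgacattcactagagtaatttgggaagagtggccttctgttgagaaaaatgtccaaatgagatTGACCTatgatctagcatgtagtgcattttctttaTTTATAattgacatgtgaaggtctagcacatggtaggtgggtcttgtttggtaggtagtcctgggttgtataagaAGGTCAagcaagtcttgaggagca

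Searched on both strands, AGGTCA was in 5 of 13 windows of these genes, those of Abcb11, Abcc2, Slco1a1, Slco1b2 and 1 of Slc10a1, and in 14% of 32851 windows of the genome. TATAAA was in 3 of 13 windows and in 12.4% of all, and GTTAAT, a part of the element of the hepatocyte factor HNF1, was in 1 of 13, that of Slco1b2, and in 6.43% of all. Of the genes with AGGTCA, Abcb11, Slco1a1 and Slc10a1 had lower means in tylosin than in control livers and Abcc2 a higher one. Slco1b2 averaged 12.09 with tylosin and 12.08 in control livers. A match of letters is a description and not a bound site.

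**Figure D3:**
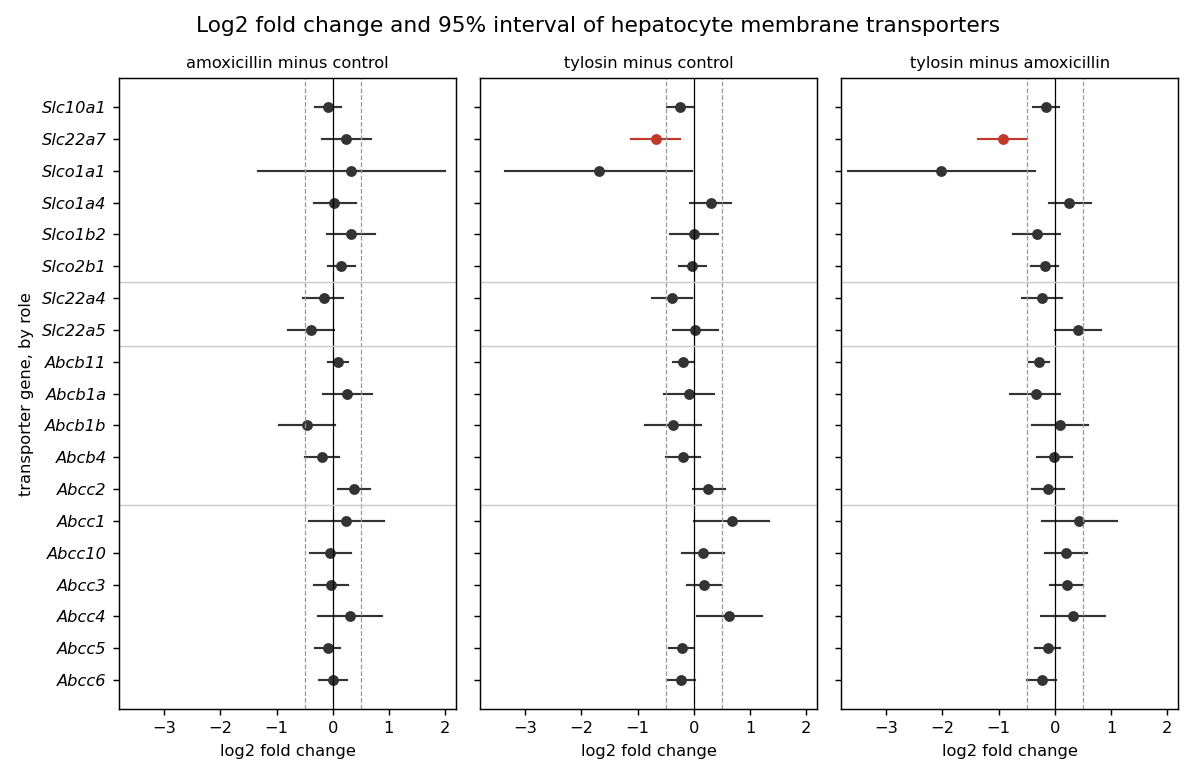
Log2 fold change (horizontal axis) with its 95% interval from limma for the 19 measured transporters of the hepatocyte membranes, grouped by role from uptake (top) to sinusoidal export (bottom) in the 3 comparisons; dashed lines mark 0.5 and -0.5, and red marks a call. Slc22a7 is the only red point, at -0.68 and -0.93, and Slco1a1 has the widest intervals.

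Pumps of the sinusoidal membrane were not called either. Abcc3, the pump MRP3 for glucuronides, was 9.90, 9.87 and 10.13 in control livers, 9.80, 9.97 and 10.04 with amoxicillin, and 10.41, 10.12 and 9.91 with tylosin, with overlapping groups. Abcc4, the pump MRP4 for bile acids and cyclic nucleotides, was 5.47, 5.23 and 4.71 in control livers, 5.79, 4.95 and 5.61 with amoxicillin, and 5.57, 5.55 and 6.19 with tylosin. The tylosin arrays lay above the controls at a low signal. The log2 fold change was 0.63 (95% interval 0.06 to 1.21, adjusted p = 0.30 from limma) and was not called, at an unadjusted p of 0.033. It was 0.42 without tylosin replicate 3 and also 0.42 without control replicate 3.

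Abcc1, the pump MRP1 found in many cell types, was 4.06 to 4.44 in control livers, 4.44 to 4.65 with amoxicillin and 4.71, 4.30 and 5.83 with tylosin. Its log2 fold change with tylosin of 0.68 (standard error 0.30, adjusted p = 0.33 from limma) rested on tylosin replicate 3 (0.24 without it), where 5 of 7 macrophage markers were highest and Clec4f and Vsig4 lowest; their part in it was not tested. Without tylosin replicate 2 the gene was called, at 1.0. All its values were under 6. With the mean of all its probe sets the log2 fold change was 0.32, and at a second probe set (3.03 to 3.61) tylosin and control overlapped. Abcc6, a liver protein linked to ATP release and to soft tissue calcification, was 8.75 to 9.06, 8.88 to 9.03 and 8.57 to 8.89 in the same groups. Its log2 fold change was -0.23 both for tylosin against control (95% interval -0.48 to 0.03) and against amoxicillin (interval -0.49 to 0.02). Abcc5, a pump of cyclic nucleotides, was 6.23 to 6.57 in control livers, 6.27 to 6.35 with amoxicillin and 6.09 to 6.22 with tylosin. Its tylosin arrays lay just below the controls (log2 fold change -0.21, 95% interval -0.44 to 0.01, and -0.13 without control replicate 2). Abcc10 was 4.24 to 5.07.

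Abcb6, Abcb8, Abcb9 and Abcb10 lie in the membranes of mitochondria and other organelles. None of them was called, and their median log2 fold changes were 0.02 with amoxicillin and -0.05 with tylosin. Abcc8 and Abcc9 are regulatory subunits of potassium channels and not pumps. Abcc9, found in vascular cells, was 8.99, 8.35 and 7.94 in control livers and 8.59 to 8.97 in the 6 PAT arrays, so the control arrays spanned most of its range. Without control replicate 1, it was called higher with both antibiotics (0.71 with amoxicillin and 0.64 with tylosin). With all arrays kept, log2 fold changes at a second probe set (6.55 to 7.33) were 0.34 with amoxicillin and 0.33 with tylosin. At a dimmer one (4.07 to 5.39) they were 0.60 and 0.53, and neither probe set was called.

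Tylosin replicate 3 held the lowest of the 9 values for 9 of the 24 genes over a log2 value of 6, and the highest for 0. It held the lowest value in 12.8% of all 7732 genes over that level and the highest in 13.7%. These 9 genes were Slc10a1, Slc22a7, Slc22a23, Slc22a30, Slco1a1, Slco1b2 and Slco2b1 among uptake genes and Abcb10 and Abcc6 among export genes. In each other array, 0 to 3 of the 24 genes were lowest. The hepatocyte markers of this array, at a mean of 13.93, lay within the range of the others, and the part of its macrophage markers in these low values was not tested. Without this array 2 members were called with tylosin against control, Slco4a1 and the dim kidney carrier Slc22a6 (-0.50), and Slc22a7 was not. Of all genes, 722 (3.97%) were called without it, against 264 with it.

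**Figure D4:**
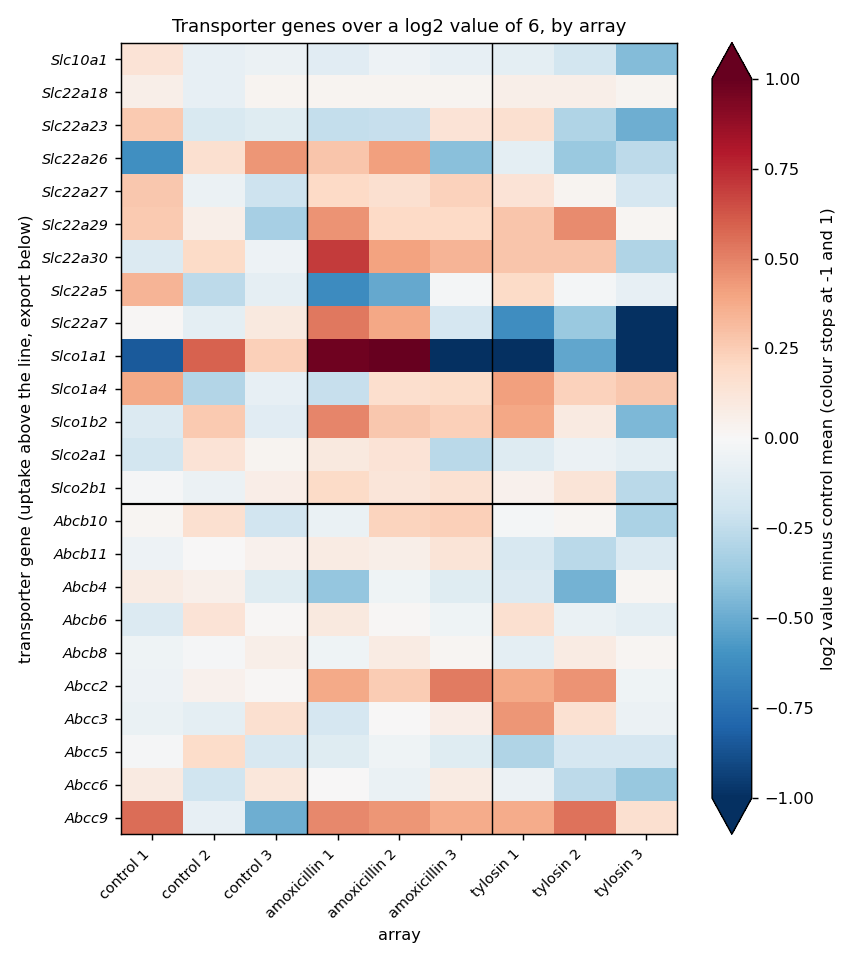
Log2 value minus the control mean (colour, which stops at -1 and 1) in each of the 9 arrays (columns) for the 24 transporter genes with log2 values above 6 on 3 or more arrays (rows), uptake genes above the line and export genes below it. The row of Slco1a1 is the most varied, and the column of tylosin replicate 3 has the lowest value of 9 rows.

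Companion genes were read from lists of other transport genes and of regulators. Of 18 measured genes of other liver transport and of the canalicular membrane, 0 were called in any comparison by limma, with 4, 1 and 0 under an unadjusted p of 0.05 for amoxicillin, tylosin and tylosin against amoxicillin. Atp8b1, the phospholipid flippase that protects the canalicular membrane, averaged 7.32 ± 0.10 in control livers and 7.70 ± 0.22 with amoxicillin (SD, n = 3 each). Ezr, a linker of membrane to actin, averaged 7.19 ± 0.16 and 6.75 ± 0.20, and Rdx, its counterpart of the hepatocyte canaliculus, 10.98 ± 0.12 and 11.23 ± 0.08. The nucleoside carrier Slc29a2 averaged 4.90 ± 0.45 in control livers, 4.04 ± 0.20 with amoxicillin and 3.98 ± 0.79 with tylosin. Its values were under 6 in all arrays (3.37 to 5.41), and its tylosin arrays overlapped the controls. The probe sets of Ezr and Slc29a2 are of a type that can bind several transcripts. These 4 genes were chosen after their values were seen. Abcg5 and Abcg8, the sterol pumps, were 8.97 to 9.55 and 7.83 to 8.33, with overlapping groups.

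Of 12 measured transcription factors that control such transporters, 0 were called in any comparison, with 1, 0 and 0 under an unadjusted p of 0.05. That gene was Ppara, the fatty acid receptor, which averaged 10.93 ± 0.12 in control livers, 10.64 ± 0.24 after amoxicillin and 10.66 ± 0.08 after tylosin (SD, n = 3 each). Nr1h4, which encodes the bile acid receptor FXR, averaged 9.18, 9.12 and 9.24 in the control, amoxicillin and tylosin groups, and Nr0b2, its target SHP, 8.39, 8.27 and 8.56. The drug receptors PXR (Nr1i2) and CAR (Nr1i3) averaged 8.07, 8.34 and 8.16, and 9.46, 9.40 and 9.34. Hnf4a, a factor of hepatocyte identity, averaged 12.20, 12.02 and 12.13.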

How the data were processed

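Liver RNA of 9 mice, 3 per group, was measured on Affymetrix mouse expression arrays, 1 for each mouse. The authors normalized the arrays with RMA (affy package), and the deposited values are log2 expression values, from 2 to 14.71. RMA fits each probe set over all arrays together. The sources used here name no version of it, and arrays give no depth: their number limits the precision.

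The 45101 probe sets were named from the platform annotation, 34958 with 1 gene symbol, 932 with several (not used as members) and 9211 unnamed. After 64 control probe sets were left out, limma 3.58.1 in R 4.3.3 was fitted to all 9 arrays with no covariate. Figures were drawn with matplotlib 3.10.9. Of the 59 members, 30 had more than 1 probe set; of the 50 probe sets not used, 8 passed the level of 6 in at least 3 arrays and 0 were called in any comparison. The fit was tested on simulated data. The members, gene lists and thresholds were chosen with earlier results of these data known. The genes named were the called members, the listed transporters of the hepatocyte membranes, members over a log2 value of 6 whose antibiotic arrays did not overlap the controls, the brightest of each family, and called companion genes; others were chosen after their values were seen. Fold changes of named genes are printed where the unadjusted p was under 0.1. Alternatives were stricter call rules, leaving out dim probe sets, quantile normalization or median centring, array weights, a trended robust variance, only the compared groups in a fit, the mean of all probe sets, a replicate block, and arrays left out.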

Additional observations from a re-analysis of the deposited data

Results flagged for a closer look

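Slc22a7 was called between the antibiotics themselves, with a log2 fold change of -0.93 for tylosin against amoxicillin in limma's test of that difference. Against the shared control arrays it was called with tylosin (-0.68) and not with amoxicillin. No other transporter gene was called between the antibiotics.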

How the results depend on the processing

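With amoxicillin, where 1 transporter gene was called, 0 were called with an adjusted p under 0.05, a log2 fold change over 1, the filter on dim probe sets, the mean of all probe sets of a gene, or without amoxicillin replicate 1 and tylosin replicate 2 together. With tylosin, where 2 were called, 0 were called with the adjusted p or a log2 fold change over 1, and 1 without dim probe sets, with array weights or with the mean of all probe sets. Between the antibiotics, where 1 was called, 0 were called with the adjusted p or the larger fold. With each array left out in turn the counts were 1 to 2, 0 to 3 and 1 to 3. Slc22a7 with tylosin against control lost its call with array weights (-0.60), and Slco4a1 lost both with the mean of all probe sets (-0.30 and -0.28). Slc22a4 was called with tylosin against control without control replicate 3 (-0.56). Without tylosin replicate 2, or without amoxicillin replicate 1 and tylosin replicate 2 together, Abcc1 was called (1.0 in both).

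With the replicate number as a replicate block, 1, 2 and 2 members were called, and Slco1a1 was added between the antibiotics (-2.02). Of 9 same-numbered pairs of arrays, 2 had a residual correlation over 0.1, so the numbers were not taken to pair the samples. The printed fold changes of the named transporter genes, at their brightest probe sets, kept their sign in every alternative. This was not checked for Abcc9 and Slc22a6, which were not among those named genes. Among fold changes of named genes that are not printed, 54 of 805 values under the alternatives had the other sign. Values under a log2 value of 6 carry more background, which limits what can be read from 35 of the 59 genes.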
